A study of Mus musculus with 9 samples.

Results

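The genes described here encode the proteins of the mitochondrial ribosome. They were chosen by symbol alone, as every row of the count table whose gene symbol is Mrpl or Mrps followed by a digit, with pseudogenes left out. The rule found 78 of 54838 genes, of which 49 carry an Mrpl and 29 an Mrps symbol, and all 78 are protein-coding in the GENCODE M21 annotation. The study concerns the mouse paraventricular hypothalamus in visceral and somatic pain. Cells were cut from brain sections by laser-capture microdissection, in which chosen cells are lifted off a slide under a microscope, and their RNA was sequenced from its polyadenylated 3′ end by Smart-3SEQ. The 3 groups have 3 libraries each and are named mCherry, after a red fluorescent reporter, cfos, after the product of the activity-induced gene Fos, and overlap. The design text describes cells marked by CRD, cells marked by VFF and cells marked by both, without tying these terms to the group names. Every group is mouse brain, with the cell type given as neuron. The sources used here do not give strain, genotype, sex, age, the vector or driver of mCherry, the time after a stimulus, or the number of cells or animals behind a library. Libraries of a group are labelled as biological replicates and no animal is named, so p-values here describe the spread between libraries, which may in part be technical.

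The mitochondrial ribosome translates the few messenger RNAs of the mitochondrial genome, which encode core subunits of the respiratory chain and of ATP synthase. Its ribosomal RNA comes from the mitochondrial genome, while all of its proteins are encoded in the nucleus, made in the cytosol and imported. The large subunit (mostly Mrpl symbols) joins amino acids, and the small subunit (mostly Mrps symbols) reads the messenger RNA. Many of these proteins descend from the bacterial ribosome, and others are specific to mitochondria. Symbol and subunit do not always match: Mrps18a and Mrps30 sit in the large subunit, and Mrps36 is now assigned to the α-ketoglutarate dehydrogenase complex. By this background knowledge 51 genes were counted with the large and 26 with the small subunit. Neurons depend heavily on oxidative phosphorylation, and human defects in several of these genes cause respiratory chain disease.

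The promoters of such genes are known for sites of ETS-family factors and of NRF1, regulators of nuclear genes for mitochondria. RefSeq start sites on GRCm38.p6 were available for 69 of the 78 genes, in 75 windows from 250 bases before to 50 bases after the start. The letters CCGGAAG, an ETS-family core searched on both strands like all motifs here, occurred in 26 of the 75 windows (34.7%) and in 8.86% of all 32851 windows of the same length. The NRF1 core CGCATGCG occurred in 7 of 75 (9.33%) against 1.87% of all windows, and the YY1 core AAGATGGCG in 8 of 75 (10.7%) against 1.40%. These cores were settled on after longer forms of both had been searched. TATAAA was found in 5 of 75 (6.67%) against 13.6%, and CCAAT in 30 of 75 (40.0%) against 37.4%. The windows of the group also held more G and C (median 58.7% against 52.7%) and more CG steps (median 21 against 7), which the ETS-family, NRF1 and YY1 letters all contain, and the part of base composition in these shares was not tested. A match describes letters and does not show a bound site. The 100 bases before the RefSeq start are shown for Mrpl27 and Mrpl9, each the gene of smallest p in 1 comparison below, and for Mrps18a, whose level was lowest in overlap. Capitals mark the ETS-family letters in Mrpl27 (chr11:94653691-94653790, plus strand) and Mrps18a (chr17:46110904-46111003, plus strand), and the NRF1 letters in Mrpl9 (chr3:94443236-94443335, plus strand). No motif overlapped another in these stretches.
Mrpl27: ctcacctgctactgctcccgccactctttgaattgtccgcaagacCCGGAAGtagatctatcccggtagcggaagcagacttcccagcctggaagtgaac
Mrps18a: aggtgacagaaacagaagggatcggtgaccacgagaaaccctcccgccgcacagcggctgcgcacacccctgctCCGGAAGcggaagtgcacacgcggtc
Mrpl9: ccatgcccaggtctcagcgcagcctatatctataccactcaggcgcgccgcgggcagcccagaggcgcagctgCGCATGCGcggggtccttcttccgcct

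The libraries were shallow and not all independent. Depth ranged from 504785 counts in overlap 3 to 3414593 in cfos 3, with 877257 to 978877 in mCherry. In no gene did cfos 2 hold more counts than cfos 3, so the rounded mean of these columns was used as 1 replicate, called cfos 2+3 here, which leaves 2 cfos replicates. In no gene did mCherry 2 hold more counts than mCherry 1 and mCherry 3 added together. The mCherry 2 library was kept, which makes p-values of the shared fit too small. Counts of genes passing a threshold without it are given beside the results. The SDs, the groups said to be apart and most values of single genes include it. Fos itself, in CPM (the count scaled to a common library size), measured 72.4, 209 and 282 in overlap against 30.9, 21.3 and 11.3 in mCherry. Within cfos it stood at 286 CPM in cfos 1 and at 24.7 CPM in cfos 2+3, so that group joins high and low Fos RNA. All 8 neuron markers were detected, and their summed CPM was 871 ± 180.3 in overlap, 1333 ± 39.1 in mCherry (SD, n = 3 each) and 2346 ± 702 in cfos (SD, n = 2), with no overlap of the groups. RNA of other cell types was present as well. The 8 oligodendrocyte markers summed to between 402 and 1759.8 CPM in overlap, between 1278 and 2411 CPM in mCherry, and 6800.5 and 4749.7 CPM in cfos 1 and cfos 2+3. The 8 astrocyte markers summed to between 693 and 853 CPM in overlap, between 948 and 1106 CPM in mCherry, and 3756 and 1353 CPM in cfos 1 and cfos 2+3. The 8 endothelial and mural markers summed to 597, 501 and 643 CPM in overlap and 428 and 605 CPM in cfos, above the 299.7, 339 and 385 CPM of mCherry. The 8 microglia markers summed to 248, 205 and 158 CPM in overlap and 160, 89.7 and 144 CPM in mCherry. In cfos 1 and cfos 2+3 they summed to 109 and 104 CPM, so their mean was highest in overlap. The 4 ependymal markers summed to 363 CPM in mCherry 1 and to at most 68.5 CPM in any other library. Fewer cells of a type and less RNA per cell cannot be told apart in such bulk samples, and the part of RNA from these other cell types in the results below was not tested.

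As a group, the mitochondrial ribosomal protein genes had summed levels whose separation between the groups depended on the scaling. The sum was 2087, 1966 and 2391 CPM in overlap 1, 2 and 3, and 2597, 2356 and 1846 CPM in mCherry 1, 2 and 3. In cfos 1 the sum was 1941 CPM and in cfos 2+3 it was 1920.1 CPM. The mCherry range enclosed all other values, with group means of 2148 ± 219 CPM in overlap, 2266 ± 384 CPM in mCherry (SD, n = 3 each) and 1931 ± 14.8 CPM in cfos (SD, n = 2). With RLE size factors in place of TMM the sums were 1987, 1942 and 2421 CPM in overlap, 2817, 2256 and 2131 CPM in mCherry, and 1846 and 1769.6 CPM in cfos. Both cfos replicates then lay below every other library, while overlap and mCherry still overlapped. The nearly equal cfos sums under TMM were made of different genes. The 8 genes of highest mean CPM gave 652 CPM in cfos 1 and 1179 CPM in cfos 2+3, and the other 70 gave 1289 and 741 CPM.

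The subunits were summed apart because a working ribosome needs both. The large-subunit sums were 1425, 1406 and 1809.9 CPM in overlap, 1484, 1541 and 1348 CPM in mCherry, and 1198 and 1400.3 CPM in cfos 1 and cfos 2+3. The small-subunit sums were 641, 561 and 571 CPM in overlap, 1110.3, 814 and 497 CPM in mCherry, and 743 and 517 CPM in cfos. Under TMM the mCherry libraries enclosed every small-subunit sum of the other groups. The mCherry mean of 807 ± 307 CPM stood above the 591 ± 43.7 CPM of overlap (SD, n = 3 each) through mCherry 1 and 2, while mCherry 3 was below all overlap libraries. These high sums rested on few genes. Mrps10, Mrps35 and Mrps15 held 354, 257 and 153 CPM in mCherry 1, and 301, 4.72 and 103 CPM in mCherry 2. In overlap 3, Mrps21 held 109.6 CPM and was at 0 in every other library. The order of the means is therefore not a shift shared by the small-subunit genes. With RLE size factors mCherry 3 was at 574 CPM, within the 553 to 610.03 CPM of overlap, and cfos 2+3 was below both at 477 CPM.

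**Figure D1:**
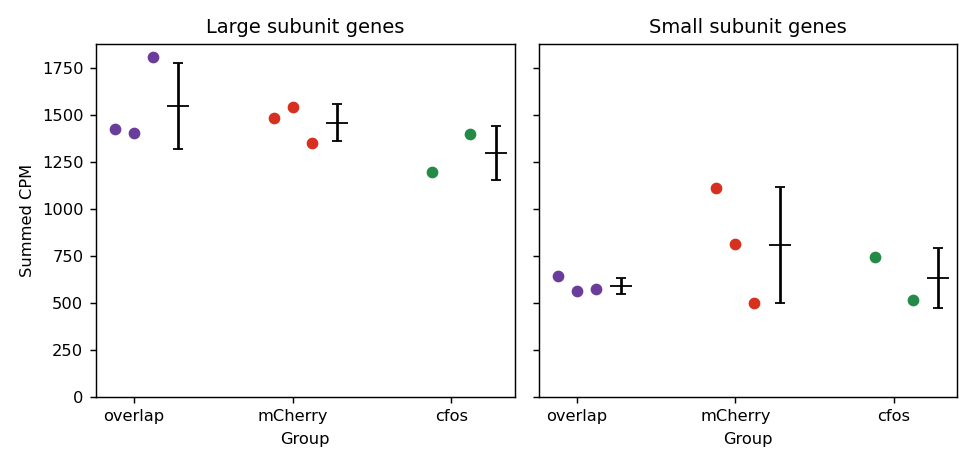
Summed CPM of the 51 large-subunit and 26 small-subunit genes, with 1 point per replicate and the mean ± SD of each group. The small-subunit sums of mCherry, from 497 to 1110.3 CPM under TMM, enclose those of both other groups. Under RLE, overlap 2 and cfos 2+3 lay below every mCherry library.

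Many of these genes were near the limit of detection. At least 1 count was found for 54 to 63 of them per library in overlap, for 64 to 69 in mCherry and for 67 to 73 in the cfos columns. Thinned to the depth of the shallowest library, the expected numbers were 54.0 to 62.6 in overlap, 57.3 to 62.3 in mCherry and 61.8 to 65.5 in cfos. Of the 78 genes, 38 had a count in all 9 columns, 39 in some columns and Mrpl53 in none. Every column held at least 10 counts for only 10 genes, among them Mrpl23, Mrpl32, Mrpl38, Mrps10 and Mrps14. The filter on low counts kept 40 genes, 25 of the large and 15 of the small subunit. The remaining 38 were not tested, and no statement on differences covers them.

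Reads were concentrated in a few genes. The 5 leading genes of each library held 29.6% to 56.5% of the group's counts, and Mrpl23, homologous to a bacterial protein at the exit of the peptide tunnel, led in 7 of the 9 columns. Mrpl43, a mitochondria-specific protein of the large subunit, led in overlap 3, and Mrpl17, which has a bacterial counterpart, in cfos 1. The 8 genes of highest mean CPM were Mrpl23, Mrpl43, Mrps10, Mrpl38, Mrpl19, Mrps26, Mrpl32 and Mrpl17. CPM from 3′ counts is not divided by gene length, and an order between genes also reflects how well each 3′ end was captured.

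Even these genes differed between libraries of 1 group. Mrpl23 stood at 237, 199.5 and 141 CPM in overlap, at 372, 347 and 337 CPM in mCherry, and at 14.0 CPM in cfos 1 against 355 CPM in cfos 2+3. Overlap was below every mCherry library, while cfos 1 was the lowest of all and cfos 2+3 lay within mCherry. Mrpl43 stood at 188, 14.5 and 312 CPM in overlap, at 324, 253 and 152 CPM in mCherry, and at 37.9 and 195 CPM in cfos, and all 3 groups overlapped. Mrpl38, a mitochondria-specific protein of the large subunit, was steadier outside overlap. Its values were 87.5, 80.3 and 82.9 CPM in mCherry and 108 and 110.0 CPM in cfos, against 112, 83.4 and 280.2 CPM in overlap. Mrpl19, a counterpart of a bacterial protein at the subunit interface, stood at 125 and 121 CPM in cfos, at 159, 94.5 and 24.6 CPM in mCherry, and at 97.8, 72.6 and 126 CPM in overlap. Mrps26, a mitochondria-specific protein of the small subunit, stood at 99.6, 68.9 and 109.6 CPM in overlap, at 145, 133 and 90.0 CPM in mCherry, and at 50.5 and 126 CPM in cfos. For both of these genes all groups overlapped.

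**Figure D2:**
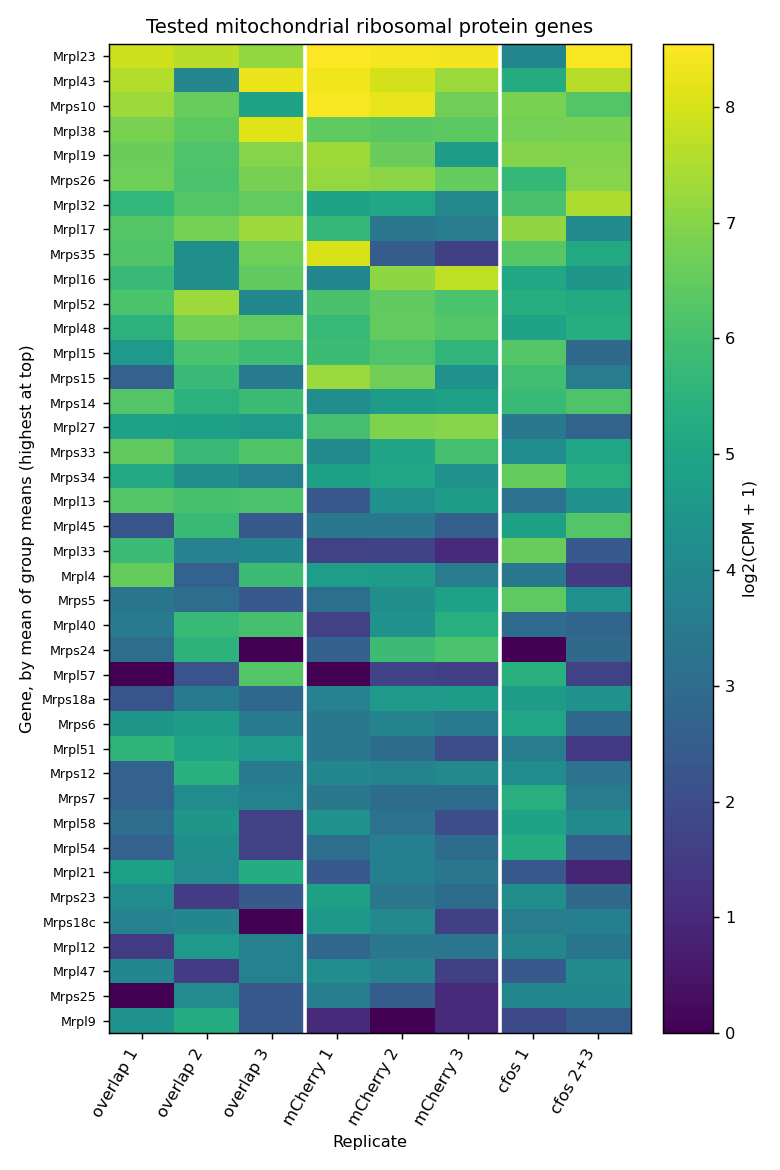
Level of each tested gene, as log2(CPM + 1), in the 8 replicates (columns), with genes in rows from the highest to the lowest mean of the group means. Single dark or bright cells within a group, such as Mrpl23 in cfos 1 at 14.0 CPM and Mrps35 in mCherry 1 at 257 CPM, show that replicates of a group differ gene by gene.

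Single replicates could hold nearly all of a gene's reads, in these genes as in the table at large. In overlap 3 of 40 (7.5%) had over 80% of the group's CPM in 1 replicate, against 15.8% of all tested genes, namely Mrpl45, Mrpl57 and Mrps24. In mCherry this held for 1 of 40 (2.5%) against 5.42%, the gene Mrps35, which encodes a mitochondria-specific small-subunit protein. It stood at 257 CPM in mCherry 1 and at 4.72 and 2.05 CPM in mCherry 2 and 3, while overlap held 74.2, 18.1 and 101 CPM and cfos 79.9 and 35.8 CPM. Among the 2 cfos replicates it held for 14 of 40 (35.0%) against 44.2%. In 11 of these 14 the high replicate was cfos 1, and for Mrpl23, Mrpl43 and Mrps24 it was cfos 2+3. The median share of a gene's CPM in its highest replicate was 52.5% against 55.9% for all tested genes in overlap, 45.7% against 51.0% in mCherry and 70.7% against 76.4% in cfos. Expression level was not matched in these shares, and the differences were not tested.

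**Figure D3:**
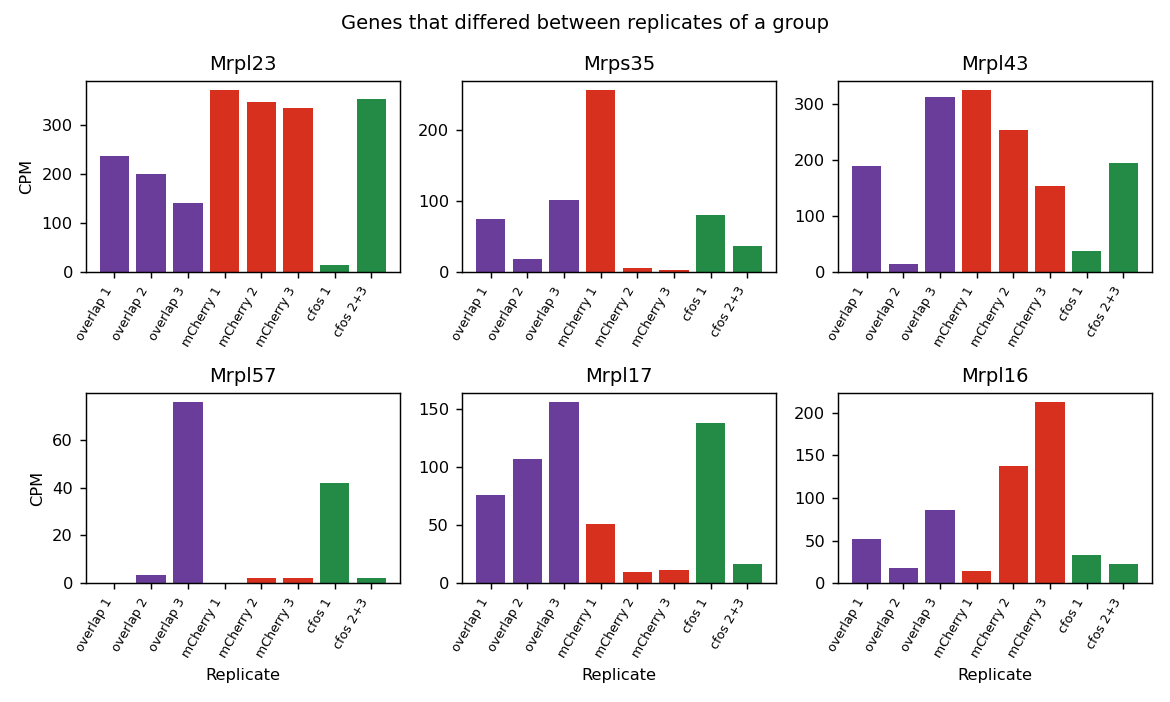
CPM of 6 mitochondrial ribosomal protein genes in each of the 8 replicates, 1 bar per replicate. Mrps35 is high in mCherry 1 (257 CPM), Mrpl57 in overlap 3 and cfos 1 (75.8 and 42.1 CPM), and Mrpl23 is low in cfos 1 alone (14.0 CPM).

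The 3 groups were compared pairwise in 1 fit of edgeR's quasi-likelihood test with Benjamini-Hochberg adjustment over 16410 genes. Each group stands in 2 of the comparisons, so their results are not independent. At an adjusted p under 0.05 no gene of the table was called in any of them, and none of the 40 mitochondrial ribosomal protein genes (0% of all genes in each comparison). The values that follow therefore describe differences that did not pass the test, unless another tool is named. The genes named are the 6 of smallest unadjusted p in each direction.

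In overlap against mCherry, the median log2 fold change was above 0 for large-subunit and below 0 for small-subunit genes, and no gene was called by edgeR. Over the 40 genes together it was 0.11, close to the 0.09 of all tested genes. The fold change was below 0 in 17 of 40, against 47.7% of all genes. The median was 0.59 for the 25 large-subunit genes, 8 of them below 0, and -0.41 for the 15 small-subunit genes, 9 of them below 0. The small-subunit median was 0.01 without overlap 3 and 0.07 without mCherry 1, so its sign depended on each of these libraries. The large-subunit median was between 0.12 and 0.81 over all settings, which tested 24 to 50 of its genes. At an unadjusted p under 0.05 edgeR gave 3 of 40, against 15% of all genes (2457), with Mrpl9 and Mrpl33 higher (10.1% of all genes) and Mrpl27 lower (4.9%). DESeq2 called 1 of 40 at an adjusted p under 0.05, Mrpl27, against 5.36% of all genes (879), and limma-voom called Mrpl9 and Mrpl17, against 8.12% (1332). Without mCherry 2, edgeR gave no gene of the group an unadjusted p under 0.05, against 983 genes in all, and DESeq2 and limma-voom called none of the group. The edgeR adjusted p without it was 0.760 for Mrpl9 and for Mrpl33, 0.852 for Mrpl17, 0.838 for Mrpl13 and 0.762 for Mrpl27.

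The groups were fully apart in 11 of the 40 genes. In 8 every overlap library lay above every mCherry library (13.5% of all genes), namely Mrpl9, Mrpl13, Mrpl17, Mrpl21, Mrpl32, Mrpl33, Mrpl51 and Mrps14. In 3 every overlap library lay below (8.88% of all genes), namely Mrpl23, Mrpl27 and Mrps18a. Mrpl13, a counterpart of a bacterial large-subunit protein, had the steadiest overlap values of the 8, at 76.0, 65.3 and 69.5 CPM against 4.27, 18.9 and 24.6 CPM in mCherry. Every overlap library was more than double any mCherry library, and the log2 fold change was 2.13 ± 1.00 (SE), with an edgeR adjusted p of 0.346.

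Mrpl9, a bacterial-type protein of the large subunit, held 19.9, 38.1 and 4.21 CPM in overlap and 1.07, 0 and 1.02 CPM in mCherry. The mCherry libraries held 2 counts in all, so the ratio of 29.8 has an exact 95% interval from 7.63 to 256 for counting error alone. The groups did not overlap, but overlap 3 held 2 counts, and the edgeR adjusted p was 0.275. Mrpl33, a small bacterial-type protein of the large subunit, stood at 56.1, 12.7 and 14.7 CPM in overlap and at 2.13, 2.36 and 1.02 CPM in mCherry. All mCherry libraries were low, overlap 1 was the highest, and the log2 fold change was 3.83 ± 1.45 (SE), with an edgeR adjusted p of 0.290. Mrpl17 stood at 76.0, 107 and 156 CPM in overlap and at 51.2, 9.45 and 11.3 CPM in mCherry. Here mCherry 1 came near the lowest overlap library, and the log2 fold change was 2.23 ± 1.02 (SE), with an edgeR adjusted p of 0.342.

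Mrpl51, a mitochondria-specific protein of the large subunit, held 47.1, 30.8 and 23.2 CPM in overlap and 9.60, 7.09 and 3.07 CPM in mCherry. The groups were apart, with a log2 fold change of 2.33 ± 1.18 (SE) and an edgeR adjusted p of 0.382. Mrpl57, also mitochondria-specific, held 0, 3.63 and 75.8 CPM in overlap and 0, 2.36 and 2.05 CPM in mCherry. Its log2 fold change of 4.05 ± 2.07 (SE) came from overlap 3, and the other libraries overlapped with mCherry.

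Among genes lower in overlap, Mrpl27 had the smallest unadjusted p in edgeR. It encodes a protein whose bacterial counterpart reaches into the peptidyl transferase centre. Its values were 29.0, 27.2 and 23.2 CPM in overlap and 64.0, 117 and 127 CPM in mCherry, or 26.5 ± 2.97 against 103 ± 33.8 CPM (SD, n = 3 each). The groups were apart, and the log2 fold change was -1.95 ± 0.79 (SE), with an adjusted p of 0.301 in edgeR and 0.0265 in DESeq2. Over all alternatives that adjusted p ran from 0.0265 to 0.863.

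Several small-subunit genes had lower group means in overlap, but with wide overlap between libraries. Mrps10, a bacterial-type small-subunit protein, held 158, 94.3 and 29.5 CPM in overlap and 354, 301 and 101 CPM in mCherry, with a log2 fold change of -1.42 ± 0.70 (SE). Mrps15, whose bacterial counterpart binds early to the small-subunit RNA, held 5.43, 54.4 and 10.5 CPM against 153, 103 and 19.4 CPM, with a log2 fold change of -1.95 ± 1.20 (SE). In both genes mCherry 3 lay within the overlap range, and the edgeR adjusted p was 0.367 and 0.487. Mrps5, a bacterial-type protein near the entry of the messenger RNA channel, held 9.05, 7.26 and 4.21 CPM against 7.47, 17.7 and 28.6 CPM, and Mrpl16, a bacterial-type large-subunit protein, held 52.5, 18.1 and 86.4 CPM against 14.9, 137 and 213 CPM. Both overlapped through mCherry 1, and the edgeR adjusted p was 0.633 and 0.627.

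**Figure D4:**
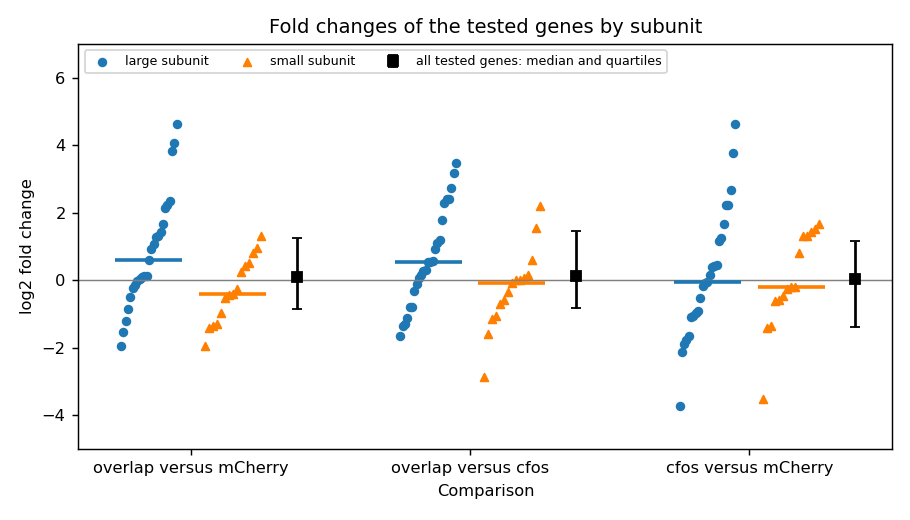
Log2 fold change of the tested genes in each comparison, by subunit, with 1 point per gene, a line at the median of the subunit, and a black square with bars at the median and quartiles of all tested genes. In overlap against mCherry the large-subunit median was 0.59 and the small-subunit median -0.41, and in cfos against mCherry they were -0.04 and -0.20.

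In overlap against cfos, the subunit medians depended on the processing and no gene was called by edgeR. The median log2 fold change was 0.11 over the 40 genes and 0.12 over all tested genes, and it was below 0 in 16 of 40, against 45.4% of all genes. The medians were 0.54 for the large subunit and -0.10 for the small subunit, with 8 of 25 and 8 of 15 below 0. Without cfos 1 the medians were 1.05 and 0.27, and with cfos 1 as the sole cfos replicate they were 0.01 and -0.15. The first of these fits kept 30 large-subunit and 17 small-subunit genes, and the second 33 and 18. Without a count filter the large-subunit median was -0.24, over 50 genes. The sign of both medians thus changed with a setting, over sets of genes that differed. At an unadjusted p under 0.05 edgeR gave 2 of 40, against 11.8% of all genes (1942), with Mrpl21 higher (8.69% of all genes) and Mrps5 lower (3.14%). Without mCherry 2, which enters through the shared spread, it gave none, against 1272 in all. DESeq2 called 0 of 40 at an adjusted p under 0.05, against 5.3% of all genes (870), and limma-voom called 0 of 40 and 0 genes in all.

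Every overlap library lay above both cfos replicates in 7 of 40 genes (13.6% of all genes): Mrpl13, Mrpl21, Mrpl27, Mrpl40, Mrpl48, Mrpl51 and Mrps33. Every one lay below in 3 of 40 (12% of all genes): Mrps18a, Mrps34 and Mrps5. Mrpl21, a bacterial-type protein of the large subunit, held 27.2, 16.3 and 37.9 CPM in overlap and 4.21 and 0.853 CPM in cfos. The cfos columns held 3, 2 and 3 counts, and the log2 fold change was 3.46 ± 1.46 (SE), with an edgeR adjusted p of 0.402. Its mCherry values of 4.27, 11.8 and 9.21 CPM lay between the other groups, and the lowest of them was close to cfos 1.

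Mrpl40, a mitochondria-specific large-subunit protein encoded in the region matching the human 22q11 deletion, held 10.9, 54.4 and 65.3 CPM in overlap and 7.01 and 5.97 CPM in cfos. Overlap 1 was close to cfos, and the log2 fold change was 2.73 ± 1.52 (SE), with an edgeR adjusted p of 0.509. Mrpl4, whose bacterial counterpart lines the peptide tunnel, held 90.5, 5.44 and 56.9 CPM against 9.82 and 1.71 CPM. Overlap 2 lay within the cfos range here, and the edgeR adjusted p was 0.453.

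Mrpl13 held 8.41 and 19.6 CPM in cfos, as low as in mCherry, while its overlap values of 65.3 to 76.0 CPM were above both. Mrpl51 showed the same order, with 11.2 and 1.71 CPM in cfos. The log2 fold changes against cfos were 2.30 ± 1.17 for Mrpl13 and 2.41 ± 1.38 for Mrpl51 (SE), with edgeR adjusted p of 0.469 and 0.519. Mrpl27 stood at 9.82 and 5.54 CPM in cfos, below overlap, with a log2 fold change of 1.79 ± 0.93 (SE) and an edgeR adjusted p of 0.480. For this gene the order was therefore cfos, overlap, mCherry, with no overlap between neighbours.

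Mrps5 held 84.1 and 18.8 CPM in cfos against 4.21 to 9.05 CPM in overlap. The groups were apart, with cfos 1 far above cfos 2+3, and the log2 fold change was -2.88 ± 1.24 (SE), with an edgeR adjusted p of 0.407. Mrps34, a mitochondria-specific small-subunit protein whose human gene is linked to Leigh syndrome, held 34.4, 18.1 and 12.6 CPM in overlap, 27.7, 31.9 and 19.4 CPM in mCherry, and 91.2 and 40.9 CPM in cfos. Only cfos stood apart, with a log2 fold change against overlap of -1.59 ± 1.01 (SE) and an edgeR adjusted p of 0.567. Mrps7, a bacterial-type protein of the small-subunit head, had an edgeR adjusted p of 0.764 and a direction that rests on cfos 1, which held 40.7 CPM against 11.1 CPM in cfos 2+3 and 5.43 to 16.3 CPM in overlap.

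Mrps18a, Mrps18b and Mrps18c are homologous genes with 1 bacterial counterpart, and their products occupy different places on the ribosome. Mrps18a held 3.62, 10.9 and 6.32 CPM in overlap, 12.8, 23.6 and 24.6 CPM in mCherry, and 25.2 and 19.6 CPM in cfos. Overlap was below every library of both other groups, mCherry and cfos overlapped, and the log2 fold changes were -1.53 ± 1.07 against mCherry and -1.67 ± 1.15 against cfos (SE), with edgeR adjusted p of 0.554 and 0.605. The overlap libraries held 2, 6 and 3 counts. Mrps18b was nearly absent, with 1 count in overlap 3, 3 each in mCherry 2 and 3, and none elsewhere. Mrps18c, at 12.7, 14.5 and 0 CPM in overlap, 22.4, 15.4 and 2.05 CPM in mCherry and 11.2 and 11.9 CPM in cfos, overlapped in all groups.

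**Figure D5:**
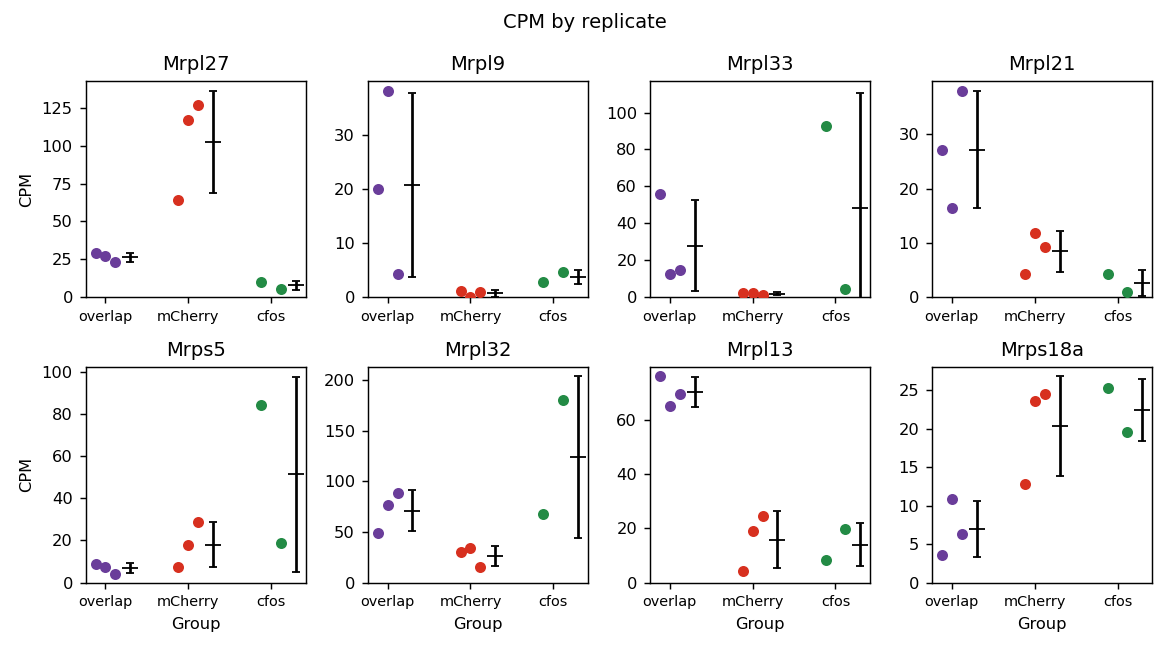
CPM per replicate of 8 genes named in the comparisons, with the mean ± SD of each group beside the points (n = 3, 3 and 2). The axis starts at 0, where the SD bar of Mrpl33 in cfos is cut off. Mrpl27 is lowest in cfos and highest in mCherry, Mrpl13 is highest in overlap, and Mrpl33 is low in all 3 mCherry libraries.

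In cfos against mCherry, the difference of smallest p in the group was that of Mrpl27, and again no gene was called by edgeR. The median log2 fold change was -0.12 over the 40 genes and 0.04 over all tested genes, and it was below 0 in 22 of 40, against 47.7% of all genes. The subunit medians were -0.04 (large, 13 of 25 below 0) and -0.20 (small, 9 of 15 below 0), and the signs of both changed with a setting. The small-subunit median was 0.59 without mCherry 1, and the large-subunit median was 0.87 without a count filter and 0.43 with cfos 1 as the sole cfos replicate. These large-subunit medians were over 50 and 33 genes, in place of 25. At an unadjusted p under 0.05 edgeR gave 3 of 40, against 17.7% of all genes (2899), with Mrpl32 and Mrpl33 higher (7.49% of all genes) and Mrpl27 lower (10.2%). Without mCherry 2 it gave 2 of 40, against 1422 in all. DESeq2 called these 3 genes at an adjusted p under 0.05, against 9.26% of all genes (1519), and limma-voom called Mrpl27, Mrpl32 and Mrpl45, against 13.2% (2163). Without mCherry 2, DESeq2 called Mrpl27 alone and limma-voom none.

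Mrpl27 stood at 9.82 and 5.54 CPM in cfos against 64.0, 117 and 127 CPM in mCherry, or 7.68 ± 3.02 (SD, n = 2) against 103 ± 33.8 CPM (SD, n = 3). Both cfos replicates, of high and of low Fos RNA, were far below every mCherry library. The log2 fold change was -3.74 ± 1.02 (SE), with an edgeR adjusted p of 0.222. It was negative under all 18 alternatives, and the adjusted p ran from 1.7e-05 in DESeq2 to 0.636.

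Both cfos replicates were above every mCherry library in 9 of 40 genes (18.5% of all genes): Mrpl9, Mrpl32, Mrpl33, Mrpl38, Mrpl45, Mrps7, Mrps14, Mrps25 and Mrps34. Both were below in 5 of 40 (14.2% of all genes): Mrpl4, Mrpl21, Mrpl27, Mrpl48 and Mrpl52. Mrpl32, which is cut by the m-AAA protease before it joins the ribosome, held 67.3 and 180.4 CPM in cfos, 29.9, 34.2 and 15.3 CPM in mCherry, and 48.9, 76.2 and 88.5 CPM in overlap. Both cfos and overlap lay above every mCherry library. The log2 fold change of cfos against mCherry was 2.22 ± 0.82 (SE), with an adjusted p of 0.256 in edgeR, 0.0482 in DESeq2 and 0.00872 in limma-voom. Over all alternatives that adjusted p ran from 0.00872 to 0.652.

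Mrpl45, which anchors the ribosome at the inner membrane, held 28.05 and 75.9 CPM in cfos, 9.60, 9.45 and 5.12 CPM in mCherry, and 3.62, 52.6 and 4.21 CPM in overlap. The cfos replicates were above mCherry, and overlap 2 stood far from the rest of overlap. The log2 fold change of cfos against mCherry was 2.68 ± 1.39 (SE), with an adjusted p of 0.346 in edgeR and 0.0270 in limma-voom. Mrps14, a bacterial-type protein of the small-subunit head, held 53.3 and 72.5 CPM in cfos, 17.1, 24.8 and 28.6 CPM in mCherry, and 76.0, 43.5 and 56.9 CPM in overlap. It was lowest in mCherry with no overlap to either group, and the log2 fold change of cfos against mCherry was 1.42 ± 0.86 (SE), with an edgeR adjusted p of 0.419.

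Some large fold changes rested on cfos 1. Mrpl33 held 92.6 CPM there and 4.26 CPM in cfos 2+3, so the log2 fold change of 4.62 ± 1.54 (SE) over mCherry, at an edgeR adjusted p of 0.249, rested on 1 replicate. Mrpl57 held 42.1 and 2.13 CPM in the same order, and Mrpl17 held 137 and 16.2 CPM. The latter was 1.66 ± 1.08 (SE) above mCherry on the log2 scale, and -0.55 without cfos 1. For Mrpl57 and Mrpl17 cfos 2+3 lay within the mCherry range, and for Mrpl33 it lay above it. The cfos 1 replicate, high in all 3 genes, also held the most astrocyte, oligodendrocyte and neuron marker RNA and the most Fos RNA. The part of these in the values was not tested.

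Lower in cfos were also Mrpl16, at 33.7 and 22.2 CPM, and Mrps24, a bacterial-type small-subunit protein, at 0 and 6.82 CPM against 5.33, 56.7 and 68.5 CPM in mCherry. In both genes mCherry 1 fell within or below the cfos range, and the edgeR adjusted p was 0.375 and 0.422. Mrpl48, a mitochondria-specific large-subunit protein, held 29.5 and 39.2 CPM in cfos, 52.3, 89.7 and 77.7 CPM in mCherry, and 43.5, 105 and 88.5 CPM in overlap. It was below both other groups in each cfos replicate, with a log2 fold change against mCherry of -1.09 ± 0.82 (SE) and an edgeR adjusted p of 0.526.

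Of the untested genes, 5 had no count in at least 1 whole group while holding at least 10 counts in all. Mrps21, a bacterial-type small-subunit protein, had 52 counts, all in overlap 3. With 3 counts per group as the floor, this is at least 30.3-fold higher than in mCherry and at least 33.6-fold higher than in cfos, and it is a value of 1 library. Mrpl22, a bacterial-type large-subunit protein, likewise had its 12 counts in overlap 2. Mrpl41, a mitochondria-specific large-subunit protein, was at 0 in overlap, with 1, 2 and 4 counts in mCherry and 7, 5 and 16 in the cfos columns, which makes it at least 2.92-fold lower in overlap than in cfos. Mrpl30, a bacterial-type large-subunit protein, had no count in mCherry. Its cfos level was at least 3.91-fold higher, with 1, 8 and 17 counts in the cfos columns and 5 in overlap 2. Mrpl34, of the same kind, was found in cfos 2 and cfos 3 alone, with 5 and 9 counts. At these depths none of this shows absence. These genes were picked by their zeros, and the share of all genes meeting the same rule was not counted.

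Genes that act with the ribosome were read from lists of known function, and edgeR called none of them in any comparison. Of 15 mitochondrial translation factors 9 were tested, with median log2 fold changes of 0.37 in overlap against mCherry, 0.75 in overlap against cfos and -0.47 in cfos against mCherry. Tufm, the elongation factor that brings aminoacyl-tRNA to the ribosome, held 4, 32 and 77 counts in overlap, 1 count over all of mCherry, and 24, 91 and 171 counts in the cfos columns. The CPM ratio to mCherry was 198 in overlap (exact 95% interval 34.8 to 7879) and 140.0 in cfos (24.8 to 5564), for counting error alone. All mCherry libraries were at or near 0, while overlap 1 was far below the rest of overlap, and the edgeR adjusted p was 0.257 and 0.221. Mtif2, the initiation factor, held 252, 159.6 and 291 CPM in overlap, 196, 204 and 142 CPM in mCherry, and 71.5 and 128 CPM in cfos, where it was below every other library.

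Of 17 mitochondrial tRNA synthetases 14 were tested, with medians of 0.12, 0.51 and -0.31 in the same order. Sars2, the seryl-tRNA synthetase, held 197, 237.6 and 280.2 CPM in overlap, 147, 371 and 453 CPM in mCherry, and 49.1 and 46.9 CPM in cfos. Both cfos replicates were below every other library, and the log2 fold change against mCherry was -2.75 ± 0.58 (SE), with an edgeR adjusted p of 0.174. Of 26 assembly factors 14 were tested, with medians of 0.29, 0.55 and -0.47. Among them Ybey, an endonuclease needed for the small subunit, was low in both cfos replicates (5.61 and 5.97 CPM), against 36.2, 78 and 116 CPM in overlap and 51.2, 21.3 and 43.0 CPM in mCherry.

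Of 12 genes for mitochondrial transcription and DNA upkeep 5 were tested, with medians of 0.24, 0.06 and 0.72. Polrmt, the mitochondrial RNA polymerase, held 1, 4 and 19 counts in overlap, 96, 22 and 35 in mCherry, and 0, 0 and 1 in the cfos columns. Both cfos replicates were thus at or near 0, while overlap 3, at 40.0 CPM, lay within the mCherry range of 25.98 to 102 CPM. Mgme1 was instead highest in cfos, at 184 and 192 CPM, against at most 61.7 CPM in overlap and 78.9 CPM in mCherry. Of 19 genes for import and matrix upkeep 16 were tested, with medians of -0.53, -1.14 and 0.63. Phb, a scaffold protein of the inner membrane, had 3 counts over overlap and 240 over mCherry, a ratio of 45.7 (exact 95% interval 15.5 to 223, counting error alone), with mCherry 1 at 9 counts. Clpp, a matrix protease, was at 219 and 305 CPM in cfos, above every other library, with at most 72.6 CPM in mCherry and 177 CPM in overlap. Lonp1 was also highest in cfos, at 50.5 and 118 CPM, against at most 9.07 CPM in overlap and 11.8 CPM in mCherry. Tomm40 was lower in cfos than in every mCherry library, at 102 and 115 CPM against 212, 348 and 399 CPM. In overlap Tomm40 held 201, 98.0 and 139 CPM.

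Of the 5 ribosomal proteins of other symbols 3 were tested: Dap3, Ptcd3 and Chchd1, all of the small subunit. Dap3, a GTP-binding protein, held 16.3, 7.26 and 10.5 CPM in overlap, 7.47, 17.7 and 15.3 CPM in mCherry, and 37.9 and 18.8 CPM in cfos. Ptcd3 was at 27.2, 0 and 0 CPM in overlap and at 6.40, 94.5 and 132 CPM in mCherry, with 18.2 and 13.2 CPM in cfos. Chchd1 was found in overlap 3 alone within overlap, at 25.3 CPM, and at 42.6 CPM in cfos 2+3. In cfos 1 it was at 7.01 CPM and in mCherry at 0, 4.72 and 6.14 CPM. The log2 fold change of overlap against cfos was below 0 for all 3 genes (median -1.30), of which none was called by edgeR.

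In the annotation, on GRCm38 (mm10), Mrpl27 (ENSMUSG00000024414) spans chr11:94653767-94660089, Mrpl9 (ENSMUSG00000028140) chr3:94443318-94451130 and Mrps18a (ENSMUSG00000023967) chr17:46110986-46128910, all on the plus strand. Mrpl13 (ENSMUSG00000022370) spans chr15:55534094-55557748 and Mrpl32 (ENSMUSG00000015672) chr13:14608184-14613165, both on the minus strand. Counts of some genes may include reads of a neighbour. Of the 78 genes, 33 share exon bases with another gene, and 28 with a gene on the opposite strand, while the strand setting of the counting is not given in the sources used here. Mrpl27 shares 75 bases with Eme1, Mrpl9 shares 157 with Oaz3, Mrpl13 shares 330 with Mtbp and Mrpl21 shares 117 with Ighmbp2, all on the opposite strand. Mrpl33 shares 261 bases with Gm43809 on its own strand. Mrps34 shares 763 bases with Nme3 on its own strand and 1309 with Mapk8ip3 on the other. Mrpl32, Mrpl45, Mrps5 and Mrps18a share none. Pseudogene copies took reads too: Mrpl48-ps held 16, 16 and 17 counts in overlap, 23, 6 and 0 in mCherry and 1, 2 and 3 in the cfos columns, so reads of Mrpl48 may have been split. The Mrpl48-ps counts were even in overlap and near 0 in cfos. Mrps36-ps2 held 24, 0 and 0 counts in overlap, 54, 36 and 0 in mCherry and 0, 48 and 87 in the cfos columns. Mrps36 itself, which was not tested, held 33 counts in all.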

How the data were processed

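Laser-captured cells of the mouse paraventricular hypothalamus were sequenced as Smart-3SEQ libraries in 3 groups of 3. The authors deposited 1 table of whole-number counts per gene for all 9 libraries. The tools named in the submitters' processing notes are featureCounts, STAR, Trim Galore and UMI-tools, with the build mm10. Their versions, the strand setting and whether reads were collapsed to molecules are not stated there. Reads of 1 molecule are not independent, so the intervals and floors given here include counting error alone.

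From the counts, edgeR 4.0.16 (R 4.3.3) was run over all genes with its default filter on low counts, TMM scaling and a robust quasi-likelihood fit of 3 groups. Since cfos 2 held no more counts than cfos 3 in any gene, their rounded mean was 1 replicate. The same fit gave the CPM values. Scaling by DESeq2's size factors (RLE) in place of TMM moved the median log2 fold change of all genes by more than 0.1 in some comparisons, from 0.09 to -0.03 in overlap against mCherry. Alternatives were DESeq2 1.42.0, limma 3.58.1 (voom with sample weights), RLE scaling, no filter, a stricter filter of 10 counts in 3 columns, all 9 columns separate, cfos 3 alone, a replicate block, and each replicate left out. DESeq2 and limma-voom without mCherry 2 were added after seeing the data. The scripts were tested on simulated data. Genes and lists were chosen with earlier results of these data known. Genes of the group are named by rank of p within each comparison, by level, by homology, or by a count of 0 in a group. From the lists of genes that act with the ribosome, only some of those of smallest p in a comparison are named. Coordinates and exon overlaps are from GENCODE M21 and promoters from RefSeq.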

Additional observations from a re-analysis of the deposited data

How the results depend on the processing

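With DESeq2, 1 gene of the group was called in overlap against mCherry and 3 in cfos against mCherry, and with limma-voom 2 and 3. In cfos against mCherry 1 was called with all 9 columns separate and 1 by DESeq2 without mCherry 2. No other alternative called any. Over all genes, edgeR called 484, 214 and 1197 without a count filter in the order overlap against mCherry, overlap against cfos and cfos against mCherry, and 0, 15 and 247 with 9 columns. DESeq2 called 123, 387 and 524 without mCherry 2. The median of the group in cfos against mCherry was 0.36 without a count filter, over 77 genes in place of 40. Leaving out 1 replicate at a time moved the median between -0.15 and 0.53, between -0.11 and 0.85, and between -0.24 and 0.31 in the same order. The summed CPM of cfos was 1808 with RLE factors. Direction was kept by 33 of 36 named values. With 1 replicate left out, the log2 fold change of overlap against cfos ran from -1.38 to 0.24 for Mrpl32 and from -1.65 to 0.011 for Mrps7. That of cfos against mCherry for Mrpl17 ran from -0.55 to 2.89 and was -0.25 in limma-voom without mCherry 2. The causes were not tested. The numbers of the libraries were not taken as pairs. Deviations of same-numbered libraries from their group means had correlations of -0.05 to 0.06. With nested columns and so wide a spread between libraries, these cannot tell whether same-numbered libraries share an animal. With the replicate block over 9 columns no gene of the group and none of the table was called, and the medians were 0.11, -0.03 and 0.12.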
